A study of Homo sapiens with 48 samples.

Results

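The collagens, laminins and integrins were followed across compounds and times in HK-2, an immortalised proximal tubular epithelial line of the human kidney. They were taken as every gene whose single symbol in the platform annotation names a collagen chain, a laminin chain or an integrin subunit. The probe set with the highest mean stood for each gene and had to exceed log2 4 in at least 3 of the 48 arrays. Of 72 such symbols (43 collagens, 10 laminins and 19 integrins), 41 met this level: 19 collagens, 8 laminins and 14 integrins. They are 41 of the 11356 genes that met it in all, and values below are log2 expression values throughout.

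The study compared cells exposed to the compounds that the labels call CsA, Fk, Ra and Nnm with vehicle controls, in 16 groups of 3 arrays that the labels call biological replicates. A CsA set held CsA 12 h and CsA 48 h with CsA controls at 12 h and 48 h, and its arrays alone carry a lab number in the labels. A second set held Fk 12 h, Fk 48 h, Ra 12 h and Ra 48 h, which share 1 group of vehicle controls per time. The remaining set held Nnm low and Nnm high, labelled by dose, for 24 h and 48 h with vehicle controls at both times. All groups were the same single line grown in medium with epidermal growth factor, hydrocortisone, insulin, transferrin and selenite, were seeded 24 h before exposure and were treated near confluence. The sources used here give neither the amounts of compound nor the vehicle.

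Collagens are helical trimers that form fibrils or sheets outside the cell, and collagen IV builds the network of the basement membrane on which tubular cells sit. Laminins are trimers of an alpha, a beta and a gamma chain that form the other network of that membrane. Integrins are surface dimers of an alpha and a beta subunit that bind these proteins, those with the ITGA3 and ITGA6 subunits chiefly laminins and that with ITGA2 chiefly collagens, and tie them to the actin cytoskeleton.

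The collagen IV genes lie in head-to-head pairs that are transcribed in opposite directions, and genes of both pairs had calls below, so a start region of each pair is shown from RefSeq on GRCh38.p14, 5′ to 3′, running from 250 bases before the annotated start to 50 after it. COL4A2 lies on the plus strand of chromosome 13, and its window is chr13:110307034-110307333. The starts of COL4A1 and COL4A2 were 127 bases apart, and the 226 bases that also belong to the COL4A1 window are in capitals.
COL4A2: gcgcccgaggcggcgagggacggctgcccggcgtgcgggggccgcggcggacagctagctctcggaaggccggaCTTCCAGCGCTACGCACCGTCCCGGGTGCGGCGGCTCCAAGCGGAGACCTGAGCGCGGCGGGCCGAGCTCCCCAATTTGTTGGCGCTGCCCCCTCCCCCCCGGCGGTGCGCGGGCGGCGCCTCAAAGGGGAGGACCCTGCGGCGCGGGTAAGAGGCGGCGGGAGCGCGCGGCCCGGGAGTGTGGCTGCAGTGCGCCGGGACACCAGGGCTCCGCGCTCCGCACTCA
COL4A3 lies on the plus strand of chromosome 2, with the window chr2:227164374-227164673. Its start was 419 bases from that of COL4A4, and the 82 shared bases are in capitals. COL4A5 and COL4A6 on chromosome X were arranged likewise, with starts 380 bases apart and 121 shared bases.
COL4A3: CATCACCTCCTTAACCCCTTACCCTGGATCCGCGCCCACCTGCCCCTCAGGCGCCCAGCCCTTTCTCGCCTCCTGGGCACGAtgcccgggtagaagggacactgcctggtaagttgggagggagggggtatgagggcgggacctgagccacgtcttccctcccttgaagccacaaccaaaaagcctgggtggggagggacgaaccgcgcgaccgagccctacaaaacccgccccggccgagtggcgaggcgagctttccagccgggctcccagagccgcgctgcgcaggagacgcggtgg

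The windows of ITGA2, the alpha subunit of a collagen receptor, and LAMB3, a beta chain of epithelial laminin, are shown because both genes had large differences with Nnm. ITGA2 lies on the plus strand (chr5:52989102-52989401) and LAMB3 on the minus strand (chr1:209652376-209652675), and capitals mark each match to a searched motif.
ITGA2: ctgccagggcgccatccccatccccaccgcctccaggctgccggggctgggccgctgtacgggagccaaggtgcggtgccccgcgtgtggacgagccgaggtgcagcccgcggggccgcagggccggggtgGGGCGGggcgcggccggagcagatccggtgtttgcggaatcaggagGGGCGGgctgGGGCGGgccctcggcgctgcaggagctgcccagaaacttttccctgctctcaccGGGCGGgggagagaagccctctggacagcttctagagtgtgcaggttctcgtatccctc
LAMB3: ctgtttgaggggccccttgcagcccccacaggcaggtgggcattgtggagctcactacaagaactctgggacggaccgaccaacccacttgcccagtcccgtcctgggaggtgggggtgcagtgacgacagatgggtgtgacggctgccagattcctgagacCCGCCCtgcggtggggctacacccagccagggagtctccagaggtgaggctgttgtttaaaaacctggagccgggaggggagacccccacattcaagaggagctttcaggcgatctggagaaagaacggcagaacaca
The 4 motifs searched on both strands were the AP-1 element TGANTCA, the GC box GGGCGG, the CCAAT box (CCAAT) and the TATA box (TATAAA), and ITGA2 held 4 GC boxes and LAMB3 held 1, read on the opposite strand. Windows were found for 30 of the 41 genes, and the 1 nearest each gene's outermost start was counted. The 35116 windows set beside them were not limited to 1 per gene or to the genes tested here. The GC box was in 22 of these 30 windows (73.3%), against 45.0% of 35116 windows of the same length. The AP-1 element was in 1 of 30 (3.33%, ITGA5), against 7.71% of all windows, CCAAT in 4 of 30 (13.3%), against 34.6%, and TATAAA in 3 of 30 (10.0%), against 11.5%. A match is a stretch of letters and not a bound site, and the windows of COL4A1 and COL4A2 share their matches in the overlap.

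The cells carried a broad but selective set of these genes. Of the 11 fibrillar collagens 3 met the level: COL1A1, a chain of type I collagen, had group means of 7.11 to 8.85, COL11A2 of 4.42 to 5.41 and COL27A1 of 7.7 to 8.44. The network collagens gave 7 of 9. The main basement membrane chains COL4A1 (10.03 to 12.9) and COL4A2 (11.38 to 13.22) and the short-chain network collagen COL8A1 (9.87 to 12.1) were above log2 4 in every group. COL4A5 (4.86 to 6.81) and COL8A2 (6.0 to 6.49) were too, while COL4A3 (2.48 to 6.07) and COL4A4 (2.95 to 5.35), chains of the adult glomerular membrane, were above it in 12 and 13 arrays, all in the CsA and Nnm sets.

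Fibril-associated collagens, which decorate the surface of fibrils, gave 4 of 10: COL12A1 (4.44 to 8.21), COL14A1 (7.68 to 11.12), COL16A1 (6.93 to 8.16) and COL22A1 (5.78 to 9.3). Among the remaining collagens 5 of 13 met the level. These were the microfibril chains COL6A1 (8.67 to 11.01) and COL6A2 (7.15 to 9.02), COL7A1 of anchoring fibrils (7.26 to 9.26), COL18A1, the precursor of endostatin (8.9 to 10.13), and COL26A1 (5.01 to 6.4). COL26A1 lay within 0.05 of 5.98 in 27 of the 48 arrays.

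The laminin alpha chains gave 3 of 4, LAMA1 (7.13 to 9.2), LAMA2 (3.86 to 4.65) and LAMA5 (9.14 to 10.58). The beta chains gave 3 of 4, LAMB1 (11.98 to 13.45), LAMB2 (5.91 to 7.21) and LAMB3 (6.89 to 9.44), and both gamma chains listed, LAMC1 (10.68 to 11.49) and LAMC3 (6.79 to 7.87), met the level. All 4 laminin-binding integrin subunits met it: ITGA3 (9.45 to 12.23), ITGA6 (7.73 to 9.01), ITGA7 (4.6 to 5.83) and ITGB4 (5.68 to 7.42). So did 6 of 6 subunits that bind the RGD sequence of fibronectin and vitronectin, namely ITGA5 (7.34 to 9.29), ITGA8 (2.75 to 4.23), ITGAV (13.83 to 14.44), ITGB3 (9.69 to 10.62), ITGB5 (9.36 to 11.34) and ITGB8 (9.51 to 12.41). Of the collagen-binding alpha subunits 2 of 4 did, ITGA1 (2.88 to 4.41) and ITGA2 (3.67 to 6.84), and of the other subunits 2 of 5, ITGA4 (4.75 to 6.56) and ITGB1 (13.51 to 14.13), the partner of most alpha subunits.

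ITGA1 and ITGA8 were just inside the level, with 3 arrays each above log2 4. The 3 ITGA1 arrays all had replicate number 3 of the CsA set, at 6.31 with CsA 12 h and 6.94 and 4.16 in CsA controls at 12 h and 48 h, and the highest ITGA8 array was Ra 48 h replicate 2 at 7.08. Just outside it lay COL11A1 and ITGA10 with 2 arrays each, and COL1A2, COL5A1 and ITGB7 with 1 each. Sizes of differences are uncertain where a group mean is below log2 4, which touches COL4A3, COL4A4, ITGA1, ITGA2, ITGA8 and LAMA2.

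Of 15 renal epithelium markers 14 were measured. KRT8, KRT18, KRT19, EPCAM and PAX8 were above log2 4 in all 48 arrays, CDH1 in 46, GGT1 in 3 and MME in 1, and PAX2, LRP2, CUBN, AQP1, ANPEP and SLC34A1 in none. Of 8 fibroblast markers DCN, LUM and ACTA2 were above it in all 48 arrays and PDGFRA, PDGFRB, POSTN, FAP and THY1 in none. Of 6 endothelial markers PECAM1 was above it in 41 arrays and CDH5, VWF, KDR, TEK and TIE1 in none, and of 4 leukocyte markers measured of 6 ITGAL was above it in 9 arrays and PTPRC, CD3E and CD14 in none. Arrays of a group correlated at 0.942 to 0.995. Ra 48 h replicate 2 stood apart, with a median over all genes of 7.472 against 8.149 to 8.409 in the other 47 arrays. Replicate numbers paired the arrays of the CsA and Nnm sets, so values with the number as a block are given beside their results. In the CsA set replicate 3 was the highest or the lowest array in all 4 groups for 22 of the 41 genes (53.7%), against 31.1% of all genes. RNA came from whole wells, so fewer cells of a kind and less RNA per cell cannot be told apart.

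**Figure D1:**
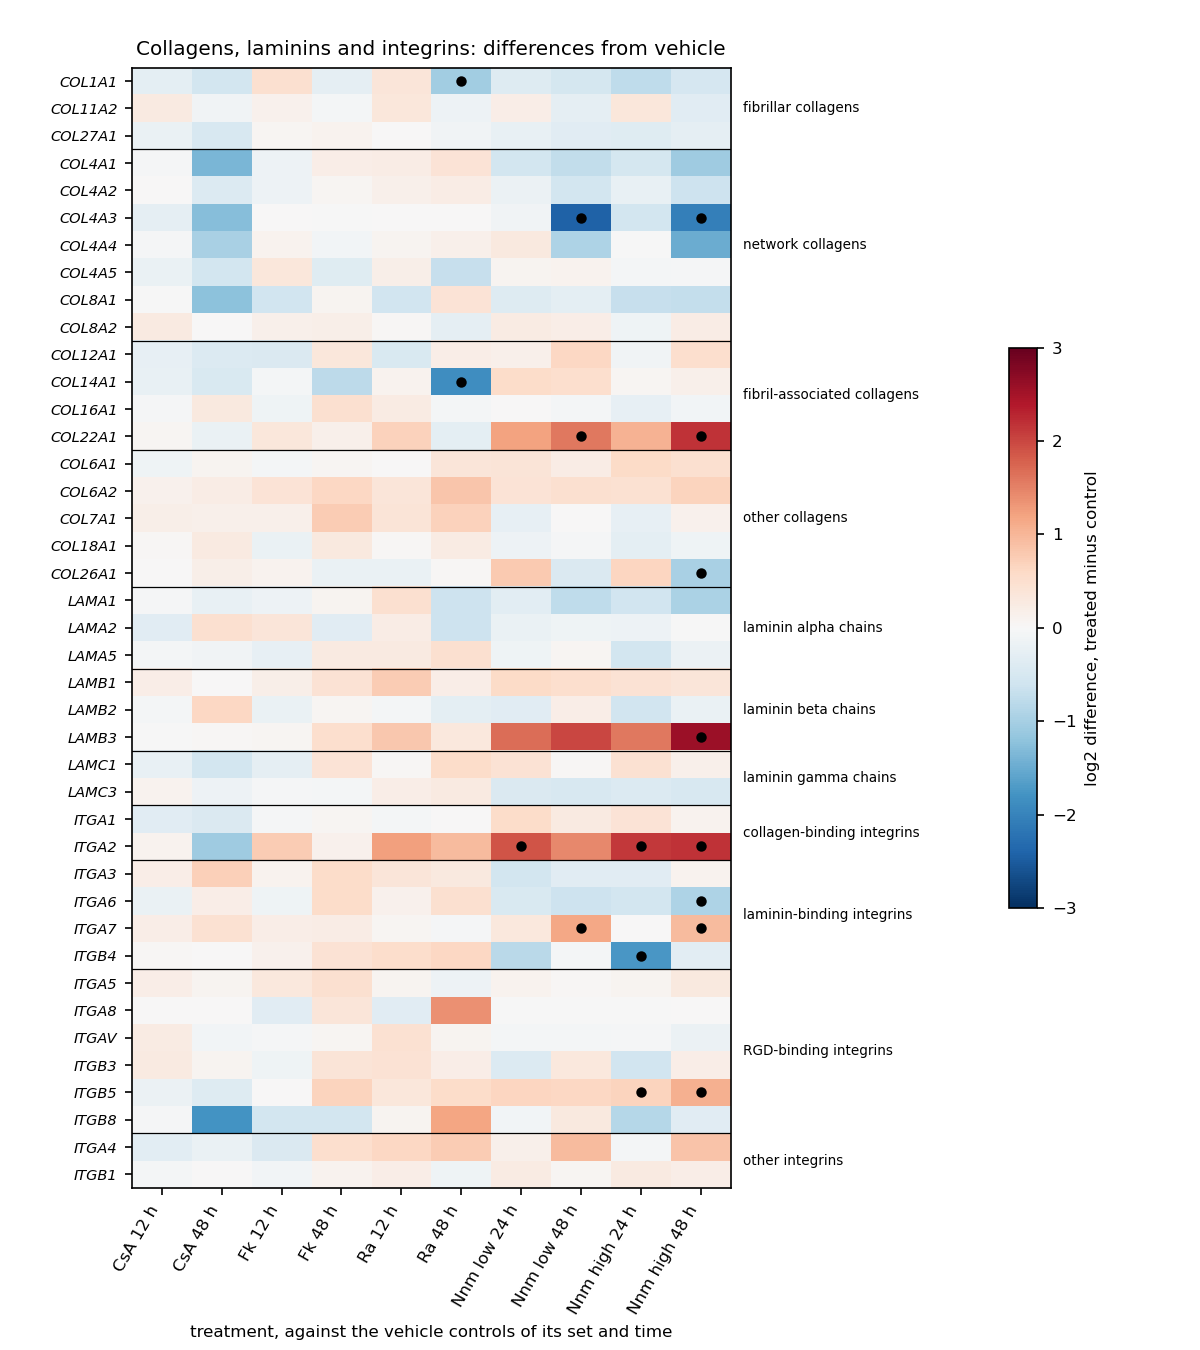
Differences (treated minus vehicle, log2) of the 41 collagen, laminin and integrin genes in the 10 treatment comparisons, with a dot where the adjusted p from limma was under 0.05. Calls are 2 with Ra 48 h and 1, 3, 3 and 8 with Nnm low 24 h, low 48 h, high 24 h and high 48 h, and 0 elsewhere.

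Nnm gave the most calls among these genes. With the high dose at 48 h, 8 of 41 were called by limma over all genes (Benjamini-Hochberg adjusted p under 0.05), against 16.8% of all genes. That count is near the share of all genes. ITGA2, ITGA7 and ITGB5, the laminin chain LAMB3 and the fibril-associated COL22A1 rose, and COL4A3, COL26A1 and ITGA6 fell. With the replicate number as a block, 15 of 41 were called (7 higher and 8 lower), against 27.4% of all genes.

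LAMB3, the beta chain of the laminin that anchors epithelial cells, was at 10.32, 7.71 and 10.3 in replicates 1 to 3 of high Nnm at 48 h, against 6.65, 6.59 and 7.42 in its controls. The groups did not overlap, and replicate 2 of the treated arrays was the lowest of its group. LAMB3 was higher by 2.56 ± 0.65 (SE, adjusted p = 0.00664, or 7.05e-06 with the block). The call ended without high Nnm replicate 1 or 3, with adjusted p up to 0.079. At the low dose LAMB3 was at 9.75, 7.27 and 9.65 at 48 h, a difference of 2.0 ± 0.65 that passed with the block (adjusted p = 0.000343) and not without it (0.0634), except when low-dose replicate 2 was left out (0.00679).

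ITGA2, which with ITGB1 forms the main collagen receptor of epithelia, was at 7.27, 5.27 and 7.92 with high Nnm at 48 h, against 4.94, 4.69 and 4.35 in its controls. All treated arrays lay above all controls, with replicate 2 the closest to them. It rose by 2.16 ± 0.59 (SE, adjusted p = 0.0108), and the call ended without treated replicate 1 or 3 or control replicate 3 (adjusted p up to 0.119). At 24 h ITGA2 was at 7.12, 5.95 and 7.43 with high Nnm, against 4.6, 4.82 and 4.72 in controls, a rise of 2.12 ± 0.59 (adjusted p = 0.00917) whose call ended without treated replicate 1 or 3 (up to 0.0707). A second ITGA2 probe set gave 2.07 ± 0.48 at 24 h and 1.91 ± 0.48 at 48 h. Low Nnm gave 6.68, 5.92 and 7.18 at 24 h, a rise of 1.88 ± 0.59 (adjusted p = 0.0413) that passed only in full or without low-dose replicate 2, with adjusted p up to 0.194 without any other array. The second ITGA2 probe set gave 0.86 ± 0.48 with low Nnm at 24 h and was not called.

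ITGB5, a beta subunit of the vitronectin receptor with ITGAV, was at 11.73, 10.72 and 11.57 with high Nnm at 48 h, against 10.14, 10.32 and 10.33 in its controls. The treated arrays were all higher. It rose by 1.07 ± 0.23 (SE, adjusted p = 0.00133), and the call passed with any single array left out (adjusted p up to 0.0289). At 24 h it was at 11.41, 11.06 and 11.23 with high Nnm, against 10.53, 10.66 and 10.5, a rise of 0.67 ± 0.23 (adjusted p = 0.0296). That call ended without replicate 1 or 3 of either group (up to 0.151). ITGAV itself was at 13.83 ± 0.13 with high Nnm at 48 h, against 14.0 ± 0.14 in controls (SD, n = 3 each; limma adjusted p = 0.686), a difference of -0.17 ± 0.25 (SE).

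COL22A1, a collagen of tissue junctions, was at 10.28, 7.92 and 9.7 with high Nnm at 48 h, against 7.36, 7.06 and 7.0 in its controls. Its groups did not overlap, and its rise of 2.16 ± 0.46 (SE, adjusted p = 0.00149) passed with any single array left out. Low Nnm at 48 h gave 9.63, 7.87 and 8.7, a rise of 1.59 ± 0.46 (adjusted p = 0.0347) that passed only in full or without low-dose replicate 2 (up to 0.317 without any other array). A second COL22A1 probe set differed by 0.37 ± 0.3 at the high dose and 0.83 ± 0.3 at the low dose and was not called, so the probe sets disagree. ITGA7, a laminin-binding alpha subunit best known from muscle, was at 6.09, 5.08 and 5.68 with high Nnm at 48 h, against 4.77, 4.6 and 4.59. It rose by 0.96 ± 0.27 (adjusted p = 0.0133), a call that ended without treated replicate 1 or 3 or control replicate 3 (up to 0.148).

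Low Nnm at 48 h called 3 of 41, against 5.22% of all genes, and 10 (6 higher and 4 lower) with the block, against 13.0%. ITGA7 was at 6.25, 4.79 and 6.44 there, a rise of 1.17 ± 0.27 (SE, adjusted p = 0.00768) whose call ended without low-dose replicate 1 or 3 (up to 0.11). COL22A1 rose as above, and COL4A3 was the gene that fell. COL4A3 was at 2.46, 3.4 and 2.49 with low Nnm and 2.48, 4.53 and 2.5 with high Nnm, against 4.32, 5.8 and 5.52 in controls at 48 h. It fell by 2.43 ± 0.71 at the low dose (adjusted p = 0.0378) and by 2.04 ± 0.71 at the high dose (adjusted p = 0.045), where the groups overlapped. The low-dose call ended without replicate 1 or 3 of low Nnm or 2 or 3 of controls (up to 0.186), and the high-dose call without replicate 1 or 3 of high Nnm or 2 or 3 of controls (up to 0.227). Most of these treated arrays lay at the bottom of the scale, so the size is uncertain.

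ITGA6, which pairs with ITGB4 in hemidesmosomes, was at 7.31, 8.36 and 7.52 with high Nnm at 48 h, against 8.54, 8.71 and 8.73 in its controls. The treated arrays were all lower, and it fell by 0.93 ± 0.29 (SE, adjusted p = 0.0263). COL26A1 was at 4.45, 5.54 and 5.03, against 5.97, 5.97 and 5.98, and fell by 0.97 ± 0.29 (adjusted p = 0.022). Both calls passed only in full or without treated replicate 2, with adjusted p up to 0.197 for ITGA6 and 0.211 for COL26A1. ITGB4 was at 6.0, 6.44 and 4.59 with high Nnm at 24 h, against 7.6, 7.3 and 7.36, and fell by 1.74 ± 0.55 (adjusted p = 0.0207). That call ended without replicate 1 or 3 of either group (up to 0.192), and at 48 h ITGB4 was at 7.28, 6.58 and 6.76 with high Nnm, against 7.55, 6.65 and 7.36.

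**Figure D2:**
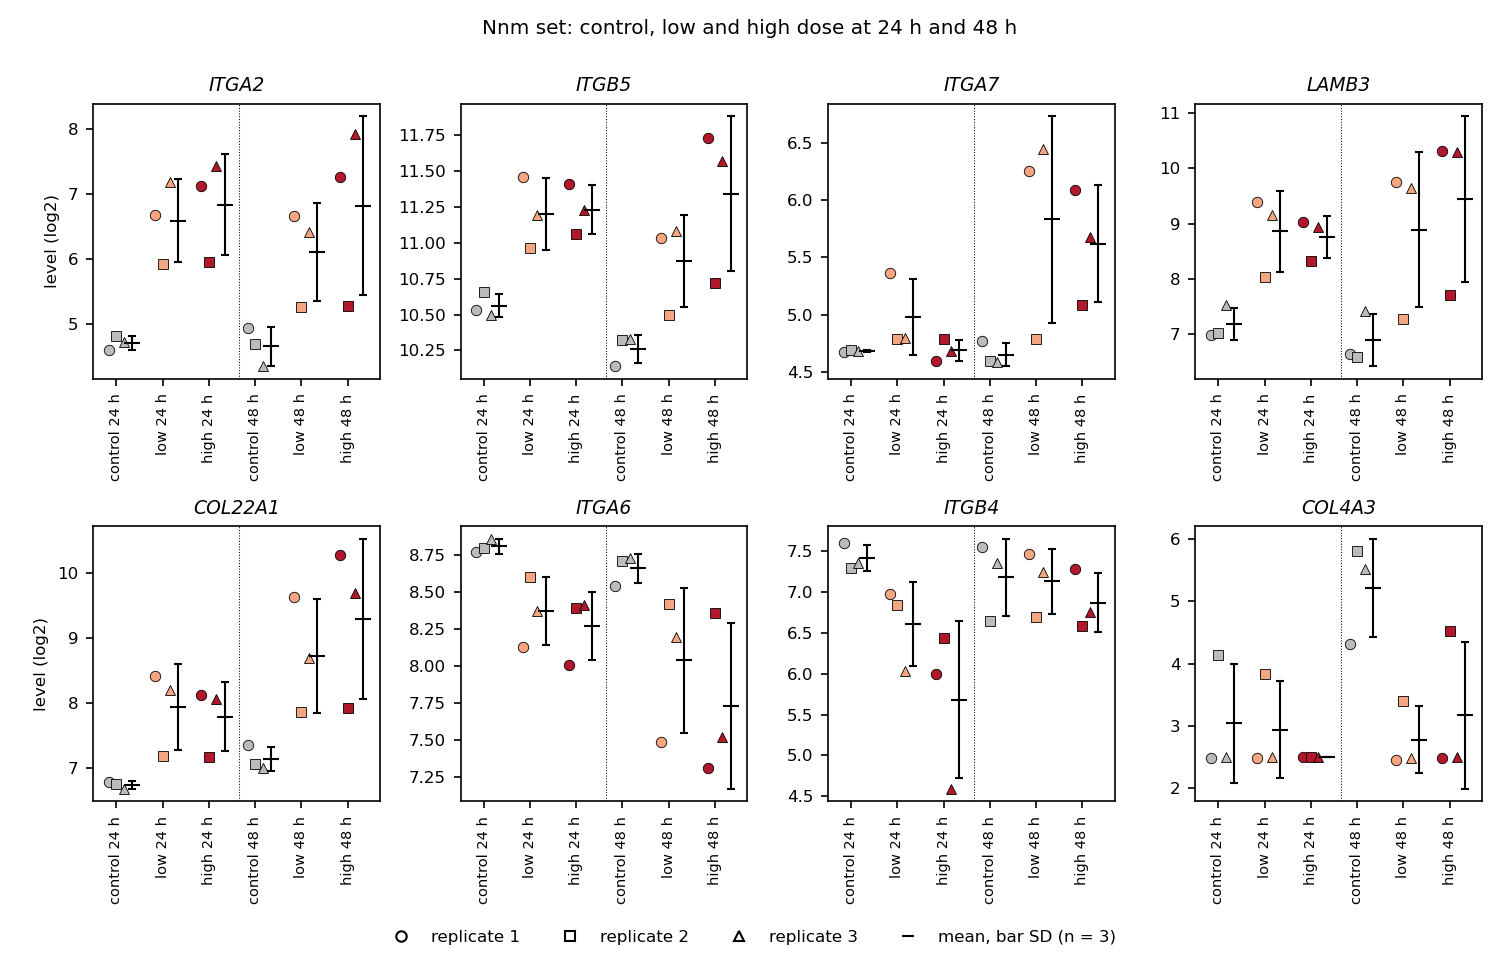
Log2 levels of 8 genes in vehicle, low-dose and high-dose Nnm arrays at 24 h and 48 h; symbols are replicate numbers and bars are means with SD (n = 3). Replicate 2 of the treated arrays lies closest to vehicle in most panels, as for LAMB3 at 7.71 with the high dose at 48 h.

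High Nnm at 24 h called 3 of 41 (ITGA2, ITGB5 and ITGB4), against 23.1% of all genes, and 12 (8 higher and 4 lower) with the block, against 33.7%. Low Nnm at 24 h called 1 of 41 (ITGA2), against 8.29%, and 6 with the block, all higher, against 18.0%. Genes called with the block but not in the fit without it, at 1 or more doses and times, were LAMB1, LAMB3, LAMC1, COL6A1, COL6A2, COL22A1 and ITGB5, with positive differences, and COL1A1, COL4A1, COL4A2, COL4A4, LAMA1, LAMB2 and LAMC3, with negative ones. Some of these also passed without the block under another setting, such as COL1A1 at the high dose and 24 h with centred arrays (adjusted p = 0.0305). COL4A1 was at 11.12, 11.95 and 10.96 with high Nnm at 48 h, against 12.6, 12.18 and 12.45, a difference of -1.07 ± 0.43 (SE; adjusted p = 0.0847 without the block, 0.00681 with it). COL4A2 differed there by -0.61 ± 0.26 (0.112 without, 0.00515 with), and LAMA1, a laminin alpha chain, by -0.94 ± 0.41 (0.112 without, 0.00476 with). All 3 had treated arrays that lay below all controls. LAMB1, a beta chain of most basement membranes, differed at 24 h by 0.58 ± 0.2 with the low dose (0.0675 without, 0.00679 with) and by 0.44 ± 0.2 with the high dose (0.111 without, 0.0211 with). COL6A2's differences are small and its second probe set had the other sign at 48 h, -0.18 with the high dose and -0.39 with the low dose.

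The pair of replicate number 2 had the smallest difference of the 3 pairs for all 8 genes called with high Nnm at 48 h, all 3 at 24 h, 2 of 3 with low Nnm at 48 h and the 1 at 24 h. The same held for 88.5% to 92.7% of all genes called in these comparisons and for 57.3% to 64.6% of all genes. Without replicate 2 of every group of the set, an alternative chosen after seeing the data, the counts of called genes were 5 (low 24 h), 4 (low 48 h), 7 (high 24 h) and 9 (high 48 h), against 13.2%, 8.78%, 31.2% and 22.9% of all genes. Fibroblast markers summed to log2 11.88 to 12.49 with high Nnm at 48 h, against 12.15 to 12.26 in controls, and renal epithelium markers to 14.28 to 14.93, against 14.43 to 14.78. These ranges overlap.

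Several widely used subunits were not called with any of the 10 treatments. ITGB1, the shared partner of the collagen and laminin receptors, was at 13.9, 13.59 and 13.85 with high Nnm at 48 h, against 13.59, 13.59 and 13.57 in its controls, a difference of 0.2 ± 0.14 (SE), and its differences over all treatments ran between -0.12 and 0.27 (lowest limma adjusted p = 0.168). ITGA3 was at 11.06, 8.88 and 10.51, against 10.01, 9.59 and 10.55 (0.1 ± 0.5), and ITGA5, the fibronectin receptor subunit, at 7.93, 6.96 and 8.03, against 7.21, 7.13 and 7.67 (0.3 ± 0.37). The groups of both overlapped. LAMA5, an alpha chain of tubular basement membrane, was at 10.15, 10.08 and 9.42, against 10.35, 9.97 and 9.87 (-0.18 ± 0.38), and COL18A1 at 9.62, 8.89 and 8.99, against 9.73, 8.97 and 9.19 (-0.13 ± 0.29). Over the treatments the lowest limma adjusted p was 0.566 for ITGA3, 0.632 for ITGA5, 0.33 for LAMA5 and 0.488 for COL18A1.

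High and low Nnm were not told apart at either time. Of the 41 genes limma called 0 at 24 h (0 with unadjusted p under 0.05) and 0 at 48 h (1, ITGB5), as with the block, against 0.00881% and 0.0176% of all genes. Here and below, the share of all genes beside a count of calls is at adjusted p. Counts at unadjusted p have no such share beside them and are not read as results about these genes. Without replicate 2 of every group it also called 0 of 41 at both times, against 3.36% and 1.5% of all genes. The difference between doses at 48 h (high minus low) was 0.47 ± 0.23 for ITGB5 (SE, unadjusted p = 0.0449, adjusted p = 1.0). A p that misses the threshold does not show that the doses act alike.

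With CsA none of these genes passed the threshold in the fit of all arrays without pairing. The collagen IV chains COL4A1 and COL4A3 passed once replicates were paired in that fit. At 48 h limma called 0 of 41 (5 with unadjusted p under 0.05), against 1.02% of all genes. With the block it called 2, both lower, COL4A1 and COL4A3, against 4.39% of all genes, so the count is near the share of all genes. COL4A1 was at 11.29, 10.07 and 8.74 with CsA at 48 h, against 11.87, 11.78 and 10.53 in the same-numbered controls, lower in 3 of 3 pairs while the groups overlapped. Its difference was -1.36 ± 0.43 (SE, adjusted p = 0.133), or -1.36 ± 0.29 with the block (adjusted p = 0.00727), and a second COL4A1 probe set gave -1.39 ± 0.45. In a limma fit of the CsA set's arrays alone, without pairing, the SE was 0.67 (adjusted p = 0.434). Leaving out 1 array moved it between -1.99 (without CsA 48 h replicate 1, adjusted p = 0.00567) and -0.71 (without CsA 48 h replicate 3).

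COL4A2, its partner chain, was at 11.74, 11.3 and 11.09 with CsA at 48 h, against 11.93, 12.06 and 11.39, a difference of -0.41 ± 0.26 (SE, adjusted p = 0.617). It was also lower in 3 of 3 pairs. COL4A3 was at 6.53, 5.01 and 2.83, against 7.3, 6.96 and 3.96, a difference of -1.28 ± 0.71 (adjusted p = 0.518, or 0.0315 with the block). Both fits share 1 spread over all arrays, among them 18 Fk and Ra arrays at 2.45 to 2.55, so these SEs can be too small for the CsA set. With the CsA set's arrays alone, without pairing, the SE was 1.13 (limma adjusted p = 0.712). Its value ran from -2.34 without control replicate 3 to -0.3 without CsA replicate 3, and its lowest arrays are at the bottom of the scale. Without replicate 3 of every group of the CsA set, chosen after seeing the data, COL4A1 differed by -1.14 and COL4A3 by -1.36, with 0 of 41 called, against 0.15% of all genes.

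ITGB8, a beta subunit that with ITGAV activates latent TGF-beta, was at 11.54, 10.28 and 6.7 with CsA at 48 h, against 12.81, 11.67 and 9.45 in controls. Each pair was lower, but the numbers spread more widely than the treatment, and the difference of -1.8 ± 0.83 (SE) had an adjusted p of 0.367 (0.0745 with the block). COL8A1 was at 10.93, 9.91 and 8.79, against 11.71, 11.11 and 10.52, a difference of -1.24 ± 0.46 (adjusted p = 0.219, or 0.0551 with the block). LAMC1, the gamma chain of most laminins, had no overlap, at 10.67, 10.69 and 10.69 with CsA, against 11.02, 11.21 and 11.48. Its difference was -0.55 ± 0.22 (adjusted p = 0.25). ITGB5 did not overlap either, at 9.38, 9.3 and 9.41, against 9.74, 9.44 and 10.1 (-0.39 ± 0.23, adjusted p = 0.54).

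At 12 h CsA left no call among the 41 genes in limma (0 with unadjusted p under 0.05 and 0 with the block), against 0.0% of all genes. COL11A2, a fibrillar chain, was the 1 gene of the 41 whose arrays did not overlap, against 6.34% of all genes, at 5.11, 4.97 and 4.86 with CsA, against 4.8, 4.76 and 4.54 (0.28 ± 0.19 SE, adjusted p = 1.0). COL4A1 was at 11.97, 12.07 and 10.59 with CsA, against 11.93, 12.0 and 10.79. Whether the effect of CsA differed between 48 h and 12 h was tested directly, and 0 of 41 were called (2 with unadjusted p under 0.05), against 0.0% of all genes. COL4A1 had the value -1.33 ± 0.61 in that test (adjusted p = 1.0). Fibroblast markers summed to log2 9.42 to 11.79 with CsA at 48 h, against 10.13 to 12.46 in controls, and their part in these values was not tested.

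**Figure D3:**
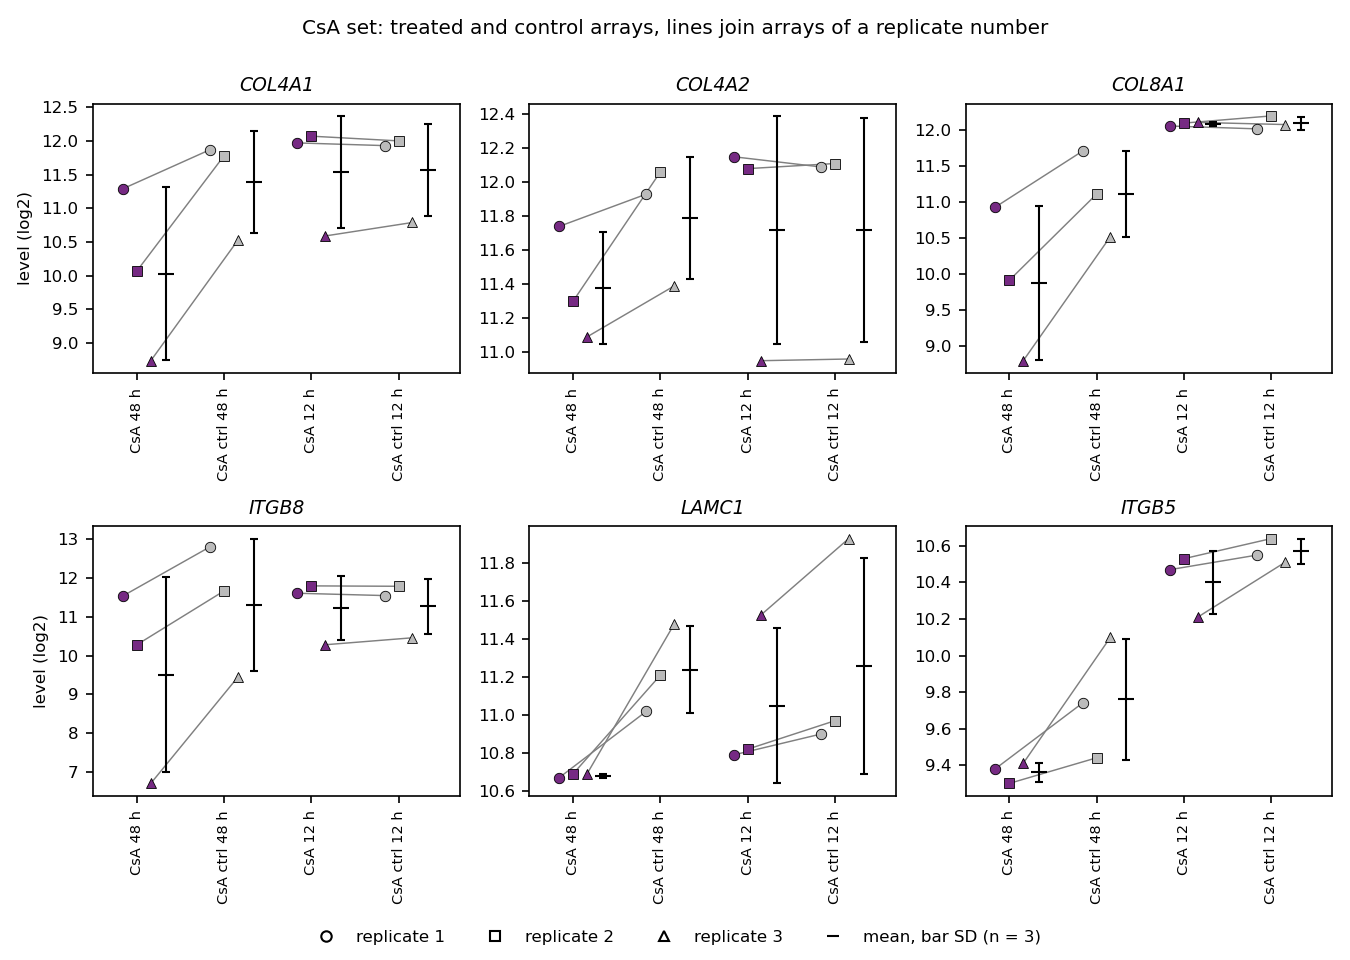
Log2 levels of 6 genes in the CsA set, CsA left of its vehicle control at each time; lines join arrays of the same replicate number and bars are means with SD (n = 3). COL4A1 is lower with CsA in each pair at 48 h, and replicate 3 lies lowest for COL4A1 and ITGB8 in all 4 groups.

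With Ra at 48 h all genes together shifted by a median of -0.18, so values are given as deposited and with each array centred on its median. As deposited, limma called 2 of 41, COL1A1 and COL14A1, both lower, against 18.5% of all genes (337 higher and 1769 lower). With centred arrays it called 6, against 17.0% of all genes (1028 higher and 903 lower): COL7A1, ITGA4, ITGB5, LAMC1 and LAMC3 higher and COL1A1 lower. Without Ra replicate 2, the dim array, and with centring, a setting chosen after seeing the data, it called 3, ITGA4, ITGB5 and LAMC1, all higher, against 7.38% of all genes.

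COL1A1, a chain of the main fibrillar collagen, was at 7.76, 5.97 and 7.6 with Ra at 48 h, against 8.24, 8.24 and 7.98 in its controls. The groups did not overlap, but replicate 2 supplied most of the gap. As deposited it was lower by 1.04 ± 0.33 (SE, adjusted p = 0.0241), and without Ra replicate 2 the difference was -0.47 (adjusted p = 0.371). Its call also ended without control replicate 1 or 2. Other COL1A1 probe sets gave -0.19 ± 0.26 and -0.67 ± 0.27 as deposited and were not called. COL14A1 was at 9.88, 8.04 and 6.85, against 10.68, 10.0 and 9.67, a difference of -1.86 ± 0.63 (adjusted p = 0.0364) and of -1.61 with centred arrays (adjusted p = 0.0726). Its groups overlapped, and the call ended without Ra replicate 2 or 3 or control replicate 1 or 2 (up to 0.233). Other COL14A1 probe sets gave -1.19 ± 0.73, -1.13 ± 0.72 and -2.17 ± 0.83 as deposited and were not called.

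LAMC1 was at 11.44, 10.94 and 11.7 with Ra at 48 h, against 10.66, 10.5 and 11.25 in controls. It differed by 0.55 ± 0.22 as deposited (adjusted p = 0.0691), by 0.8 ± 0.21 with centred arrays and by 0.74 without Ra replicate 2 and centred (adjusted p = 0.0496). ITGB5 was at 10.78, 10.1 and 10.98, against 9.7, 10.01 and 10.5, and differed by 0.55 ± 0.23 (adjusted p = 0.0847), 0.8 ± 0.2 and 0.79 (adjusted p = 0.0311). ITGA4, a receptor subunit for fibronectin and VCAM1, was at 5.46, 4.61 and 6.49, against 4.74, 4.74 and 4.77, and differed by 0.77 ± 0.38 (adjusted p = 0.15), 1.02 ± 0.35 and 1.21 (adjusted p = 0.0498). Replicate 2 was the lowest Ra array for all 3 genes. COL7A1 did not overlap, at 9.18, 8.99 and 9.38, against 8.45, 8.39 and 8.62, with 0.7 ± 0.26 as deposited (adjusted p = 0.0521) and 0.95 ± 0.27 centred. LAMC3 was at 8.02, 7.35 and 8.24, against 7.48, 7.51 and 7.8, with 0.27 ± 0.2 and 0.53 ± 0.18.

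At 12 h Ra gave 0 calls among the 41 genes in limma (2 with unadjusted p under 0.05), against 0.0704% of all genes. LAMB1 was at 12.79, 13.05 and 12.77 with Ra, against 12.18, 12.13 and 12.01 in controls, with no overlap and a difference of 0.76 ± 0.2 (SE, adjusted p = 0.178). ITGA2 was at 5.8, 5.93 and 5.74, against 4.19, 4.71 and 4.9 (1.22 ± 0.59, adjusted p = 0.634). LAMB3 was at 9.12, 8.88 and 8.97, against 8.1, 7.81 and 8.67, and COL8A1 at 10.29, 10.44 and 10.84, against 10.89, 11.07 and 11.33. These 4 genes are among 13 of the 41 whose arrays did not overlap, against 32.2% of all genes. The direct test of 48 h against 12 h called 0 of 41 (4 with unadjusted p under 0.05), against 3.62% of all genes, among which COL1A1 had -1.41 ± 0.46 as deposited (adjusted p = 0.0724) and -1.14 ± 0.39 with centred arrays (adjusted p = 0.0861).

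Fk gave 0 calls among these genes at 12 h (0 with unadjusted p under 0.05) and 0 at 48 h (3), against 0.0% of all genes at both times in limma. At 48 h COL7A1 was at 9.17, 9.47 and 9.13 with Fk, against 8.45, 8.39 and 8.62 in the controls it shares with Ra, a difference of 0.77 ± 0.26 (SE, adjusted p = 1.0). ITGA3, the laminin-binding partner of ITGB1, was at 12.33, 12.18 and 12.17, against 11.49, 11.79 and 11.74, and LAMB3 at 8.47, 7.88 and 7.8, against 7.73, 7.55 and 7.35. These 3 are among 9 of 41 whose arrays did not overlap, against 10.1% of all genes. At 12 h ITGA2 was at 5.56, 5.34 and 5.19 with Fk, against 4.19, 4.71 and 4.9 (0.76 ± 0.59), and COL22A1 at 6.24, 6.08 and 6.05, against 6.0, 6.03 and 5.3 (0.35 ± 0.46). The effect of Fk at 48 h against 12 h called 0 of 41 (2 with unadjusted p under 0.05), against 0.0% of all genes.

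Ra and Fk were set against each other at matched times, with doses that the sources used here do not give. At 12 h limma called 0 of 41 (2 with unadjusted p under 0.05), against 0.00881% of all genes: ITGA4 was at 6.42, 6.37 and 6.6 with Ra, against 5.16, 6.32 and 4.81 with Fk (1.03 ± 0.38 SE, adjusted p = 0.497), and LAMB1 differed by 0.58 ± 0.2 (adjusted p = 0.474). At 48 h it called 0 (3 with unadjusted p under 0.05), against 17.3% of all genes, where all genes shifted by a median of -0.2. With centred arrays it called 1, against 13.8%, LAMC3, at 0.63 ± 0.18. ITGB8 was at 11.34, 11.07 and 11.58 with Ra at 48 h, against 8.11, 10.01 and 10.64 with Fk, with no overlap, and differed by 1.75 ± 0.83 (adjusted p = 0.142) or by 2.04 ± 0.82 with centred arrays (adjusted p = 0.0896).

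The effect of Nnm at 48 h against 24 h was tested the same way. Of the 41 genes limma called 0 at the low dose (3 with unadjusted p under 0.05) and 0 at the high dose (3), against 0.0% and 0.00881% of all genes. ITGA7 had 0.95 ± 0.38 at the high dose (SE, adjusted p = 0.729) and COL26A1 -1.62 ± 0.42 (adjusted p = 0.61). The COL26A1 value rests on control replicate 3 at 24 h, which was at 3.88 beside 5.72 and 5.97 in the other controls, and without that array it was -0.96.

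Vehicle controls were compared between times, and these genes were called there about as often as all genes. At 48 h against 12 h, COL6A1, COL12A1 and ITGA4 fell and LAMB1 rose in both the CsA set and the Fk and Ra set. In the CsA set 6 of 41 were called by limma, against 13.7% of all genes, and 10 (5 higher and 5 lower) with the block, against 24.1%. In the Fk and Ra set 7 were called, against 19.8%. The 4 genes called in both are 66.7% of the members called in the CsA set, against 69.8% over all genes called there, and 57.1% of those called in the Fk and Ra set, against 48.1%. Over all genes 9.55% were called in both sets in the same direction. In sign, 30 of 41 genes (73.2%) were the same in both sets, against 79.3% of all genes. These shares are near those of all genes and show nothing particular to the family. The sets share no arrays.

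LAMB1 was at 13.08, 12.78 and 12.63 in CsA controls at 48 h, against 11.94, 12.26 and 11.75 at 12 h, and at 13.1, 13.06 and 12.9 in Fk and Ra controls at 48 h, against 12.18, 12.13 and 12.01. Neither pair of groups overlapped. It rose by 0.85 ± 0.2 (SE, adjusted p = 0.00535) and by 0.92 ± 0.2 (adjusted p = 0.00174), and both calls passed with any single array left out. COL6A1 was at 8.29, 8.36 and 9.34 at 48 h, against 9.54, 9.78 and 10.11 at 12 h in the CsA set, and fell by 1.14 ± 0.24 (adjusted p = 0.00213), a call that also passed without any single array. In the Fk and Ra set it was at 10.19, 10.07 and 10.41, against 11.0, 11.08 and 10.94, and fell by 0.78 ± 0.24 (adjusted p = 0.0201), which ended without replicate 1 or 2 at 48 h or replicate 2 at 12 h (up to 0.0853).

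COL12A1 was at 5.01, 4.67 and 4.83 at 48 h, against 6.1, 5.81 and 6.39 at 12 h in CsA controls, and fell by 1.26 ± 0.44 (SE, adjusted p = 0.0487). In Fk and Ra controls it was at 6.29, 7.31 and 7.41, against 8.31, 7.86 and 8.46, and fell by 1.2 ± 0.44 (adjusted p = 0.0474). ITGA4 fell by 1.17 ± 0.38 (adjusted p = 0.0339) in the CsA set, at 5.71, 4.73 and 5.26, against 5.89, 6.59 and 6.71. It fell by 1.11 ± 0.38 (adjusted p = 0.0336) in the Fk and Ra set, at 4.74, 4.74 and 4.77, against 5.63, 5.89 and 6.04, where a second ITGA4 probe set gave -0.09 ± 0.34. No groups overlapped. These calls are close to the threshold: that of COL12A1 ended without any of the 6 arrays of the CsA set and without any of the Fk and Ra set but replicate 3 at 48 h (up to 0.283). That of ITGA4 ended without replicate 2 or 3 at either time in the CsA set and without any array but replicate 1 at 12 h in the Fk and Ra set (up to 0.195).

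Other calls belonged to 1 set, and the difference between sets was not tested. In CsA controls ITGB5 was at 9.74, 9.44 and 10.1 at 48 h, against 10.55, 10.64 and 10.51 at 12 h, and fell by 0.81 ± 0.23 (SE, adjusted p = 0.015), a call that ended without replicate 2 at 48 h (0.116). COL4A3 was at 7.3, 6.96 and 3.96, against 4.35, 4.75 and 2.51, and rose by 2.2 ± 0.71 (adjusted p = 0.0345) although the groups overlapped, a call that ended without replicate 1 or 2 at 48 h or 3 at 12 h (up to 0.241). In Fk and Ra controls LAMA1 was at 9.27, 8.91 and 9.02, against 7.46, 7.38 and 7.01, and rose by 1.78 ± 0.41 (adjusted p = 0.0023), which passed with any single array left out. COL14A1, which decorates collagen fibrils, was at 10.68, 10.0 and 9.67, against 7.59, 8.52 and 7.14, and rose by 2.37 ± 0.63 (adjusted p = 0.00729), a call that ended without replicate 1 at 48 h (0.0557). Its 3 other probe sets gave 2.25 to 3.4. COL22A1 was at 7.6, 7.28 and 7.05, against 6.0, 6.03 and 5.3, and rose by 1.53 ± 0.46 (adjusted p = 0.0166), which ended without replicate 1 at 48 h or 3 at 12 h (up to 0.0941). Its second probe set gave 0.36 ± 0.3.

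**Figure D4:**
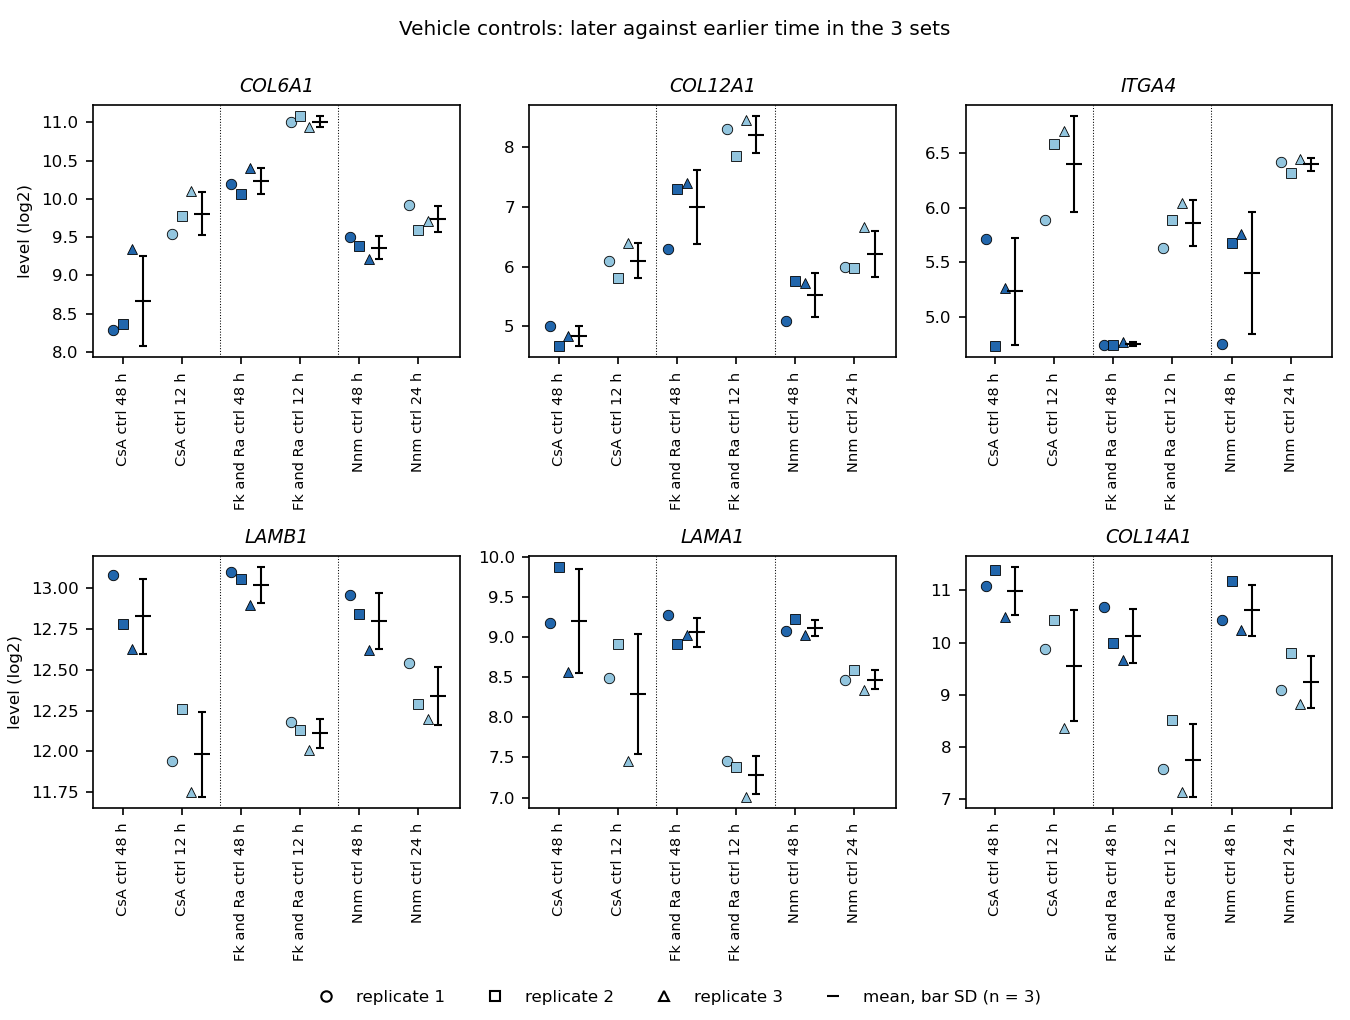
Log2 levels of 6 genes in vehicle controls, 48 h left of the earlier time (12 h in the CsA set and in the Fk and Ra set, 24 h in the Nnm set); bars are means with SD (n = 3). LAMB1 is higher and COL6A1, COL12A1 and ITGA4 are lower at 48 h in the first 2 sets.

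In Nnm controls at 48 h against 24 h limma called 0 of 41, against 0.0% of all genes, and 2 with the block, against 0.704%. At unadjusted p under 0.05 there were 9, with no share of all genes given at that level. These were COL4A3, at 4.32, 5.8 and 5.52, against 2.48, 4.14 and 2.5 (2.17 ± 0.35 SE with the block, adjusted p = 0.00131), and COL4A4, at 4.62, 5.93 and 5.5, against 3.5, 3.23 and 3.33 (2.0 ± 0.41, adjusted p = 0.0126). Neither overlapped. The fall of COL4A3 with Nnm at 48 h is thus measured against controls that were higher than those at 24 h. In the Fk and Ra set COL4A3 lay between 2.45 and 2.55 in all 18 arrays, and these arrays enter the spread that the fit of all arrays shares.

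Over the 16 group means COL4A1 and COL4A2 had r = 0.93 and COL4A3 and COL4A4 r = 0.85. Within the sets, over single arrays, COL4A1 and COL4A2 had r = 0.83 (CsA, 12 arrays), 0.69 (Fk and Ra, 18) and 0.75 (Nnm, 18), and COL4A3 and COL4A4 had 0.77 in the CsA set and 0.77 in the Nnm set. In the Fk and Ra set both lay below log2 4 in all 18 arrays and had r = 0.71, so a similar value also arose at the bottom of the scale. The neighbouring microfibril chains COL6A1 and COL6A2 had 0.74 (CsA), 0.58 (Fk and Ra) and 0.69 (Nnm) over single arrays and 0.92 over group means. Among other genes that partner in 1 protein, LAMA5 and LAMB1 had 0.73, LAMB1 and LAMC1 0.39, ITGA6 and ITGB4 0.34, ITGAV with ITGB3 0.05, with ITGB5 -0.02 and with ITGB8 -0.34, and ITGA2 and ITGB1 -0.02. ITGA2 and ITGB5, of different receptors, had 0.75. Outside these families RBPMS2 (0.95), CCN2 (0.92) and SPTAN1 (0.92) had the group means most like those of COL4A1. These are descriptions over points that share sets and controls, with no test.

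**Figure D5:**
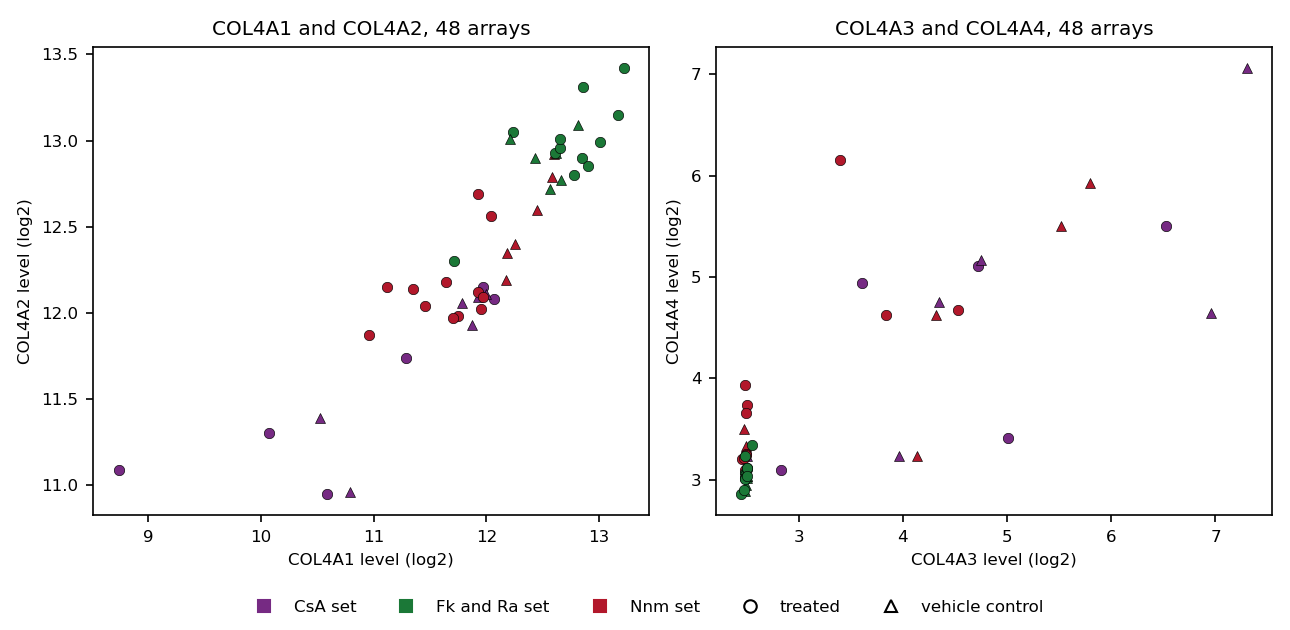
Log2 level of COL4A2 against COL4A1 and of COL4A4 against COL4A3 in each of the 48 arrays, coloured by set. Within the sets r was 0.69 to 0.83 for the first pair, and the Fk and Ra arrays lie at 2.45 to 2.55 on the COL4A3 axis.

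Genes that process collagen, other matrix genes, integrin adaptors and TGF-beta genes were counted in the same comparisons. Of 24 integrin adaptors measured of 30 listed, 3 and 1 were lower with low Nnm at 24 h and 48 h and 4 and 1 with high Nnm, against 4.71%, 2.45%, 12.5% and 7.88% of all genes, and 0 were higher. With the block 5, 2, 6 and 3 were lower, against 9.7%, 6.27%, 18.1% and 12.9% of all genes, and 1 was higher, with high Nnm at 48 h. ACTN4, an actin cross-linker at adhesions, was at 9.87 ± 0.09 with high Nnm at 24 h, against 11.16 ± 0.28 in controls (SD, n = 3 each), and fell by 1.29 ± 0.19 (SE, limma adjusted p = 2.28e-05). Its relative ACTN1 fell there by 1.09 ± 0.24 and PARVB, of the ILK complex, by 1.22 ± 0.27, and these 3 calls passed with any single array left out. The median of the 24 was -0.26, against -0.01 over all genes.

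Of 20 TGF-beta genes measured of 23, 1, 1, 4 and 3 were higher with low Nnm at 24 h, low at 48 h, high at 24 h and high at 48 h, against 3.58%, 2.77%, 10.5% and 8.89% of all genes, and 0 were lower. With the block 4, 4, 4 and 9 were higher, against 8.35%, 6.75%, 15.6% and 14.4% of all genes, and 1 was lower, with high Nnm at 24 h. Rises were not limited to Nnm. With Ra at 48 h, 4 of the 20 were higher and 1 lower as deposited, against 2.97% and 15.6% of all genes. With centred arrays 5 were higher and 0 lower, against 9.05% and 7.95%. SMAD3, ID1 and LTBP2 were among those higher as deposited, and each call ended without control replicate 1 or 2 or Ra replicate 3. SMAD3 and LTBP2 also did not pass without Ra replicate 2, nor ID1 without Ra replicate 1, and the groups overlapped for ID1. ID3, an inhibitor of helix-loop-helix factors, was at 6.83 ± 0.31 with high Nnm at 48 h, against 4.7 ± 0.68 (SD, n = 3 each), a rise of 2.13 ± 0.4 (SE, limma adjusted p = 0.000431) that passed with any single array left out. Of 23 other matrix genes measured of 27, 3 were higher and 3 lower with high Nnm at 48 h, against 8.89% and 7.88% of all genes, and 7 and 3 with the block, against 14.4% and 12.9%. FBN2, a microfibril protein, was at 5.83 ± 0.87, against 3.54 ± 0.01 in controls (SD, n = 3 each), and was called higher with any array left out (limma adjusted p = 0.00104), but its controls lie below log2 4 and the size of the difference is uncertain. THBS1, a secreted adhesion protein, was at 4.17 ± 1.48, against 7.2 ± 0.22, and fell by 3.03 ± 0.95 (adjusted p = 0.0257), a call that passed only in full or without treated replicate 2. Of 21 collagen-processing genes measured of 26, 2 were higher and 0 lower there (5 and 0 with the block): P4HA2, which hydroxylates collagen prolines, rose by 2.09 ± 0.62 (adjusted p = 0.0184) and LOXL1 by 1.3 ± 0.41 (adjusted p = 0.0269). P4HA2 did not pass without replicate 1 of either group, control replicate 2 or treated replicate 3, and LOXL1 passed only in full or without treated replicate 2.

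With CsA at 48 h, 1 of the 21 collagen-processing genes was higher and 1 lower, against 0.299% and 0.722% of all genes, and 2 and 3 with the block, against 1.45% and 2.93%. PPIB, the cyclophilin of the endoplasmic reticulum that helps collagen fold, was at 13.77 ± 0.19, against 12.75 ± 0.57 (SD, n = 3 each), and rose by 1.02 ± 0.26 (SE, limma adjusted p = 0.0417). COLGALT1, which adds galactose to collagen, fell by 0.83 ± 0.19 (adjusted p = 0.0217). Both calls ended without CsA replicate 2 or 3 or control replicate 1 or 3. With Ra at 48 h, 2 collagen-processing genes were higher and 3 lower as deposited, against 2.97% and 15.6% of all genes, and 7 and 1 with centred arrays, against 9.05% and 7.95%. LOXL1, a cross-linking enzyme of elastin and collagen, was at 7.5 ± 0.83, against 6.04 ± 0.6 (SD, n = 3 each), and rose by 1.46 ± 0.41 as deposited and 1.71 centred. MIA3, which carries procollagen out of the endoplasmic reticulum, fell by 1.31 ± 0.31 and 1.06. Both were called in both scalings, but LOXL1 not without control replicate 1 or 2 or Ra replicate 3, and MIA3 not without control replicate 1 or Ra replicate 2. With Fk at either time and with Ra or CsA at 12 h, 0 genes of the 4 lists were called by limma, with 0 to 2 per list at unadjusted p under 0.05.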

How the data were processed

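RNA of 48 HK-2 cultures was hybridised to 1 array each. The deposited values are log2 expression values, and the submitters' processing notes name GCRMA, whose version the sources used here do not give. Precision is limited by having 3 arrays a group. Of 54675 probe sets, 62 controls, 1801 with several symbols and 11721 with none listed were left out. Probe sets above log2 4 in at least 3 arrays were kept, 1 per gene by highest mean, which gave 11356 genes. With limma 3.58.1 in R 4.3.3, lmFit and eBayes were run on all 48 arrays jointly, each group having its own mean, and differences were tested two-sided and adjusted by Benjamini-Hochberg over all genes of each comparison, and its script was tested on simulated data.

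The members, gene lists, tests and the rule for named genes (every called gene, where none was called the gene of each family with the largest non-overlapping difference, a set of well-known chains and subunits, and the 3 genes most like COL4A1 over group means) were chosen with earlier results of these data known. Groups share replicate numbers. Deviations from group means of same-numbered arrays correlated above 0.1 in all 18 pairs of the CsA set (0.24 to 0.93) and all 45 of the Nnm set (0.14 to 0.79), but in 19 of 45 of the Fk and Ra set, which was not taken as paired. Alternatives were centred arrays, quantile normalization, no filter, the arrays of a set alone, the replicate block, every probe set on its own and each array left out. Start regions are from RefSeq.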

Additional observations from a re-analysis of the deposited data

How the results depend on the processing

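Of 1064 alternative values for 83 pairs of gene and comparison, 854 kept direction and side of the threshold, 116 no longer passed, 92 newly passed and 2 reversed: COL6A2 with low Nnm (-0.12) and with high Nnm (-0.07) at 24 h, both without control replicate 2, where leaving out other arrays gave up to 0.81 and 0.82. None of the 30 called pairs reversed under these alternatives, and 6 passed with any array left out. Of the 30, those not passing were 1 with centred arrays, 1 with quantile normalization, 10 with no filter, 12 with only the arrays of the set, 0 with the replicate block and 2 with every probe set on its own. This last setting was read here only for the probe set already used for each gene. Other probe sets of called genes are therefore not covered by these counts, and several were not called. Examples are COL1A1 with Ra at 48 h (-0.19 ± 0.26, SE) and ITGA2 with low Nnm at 24 h (0.86 ± 0.48). The cause was not tested.

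Counts of called members that moved by more than 1.5 times were these. Shares of all genes called under the same setting are in brackets. With the replicate block they were 2 for CsA 48 h (4.39%), 1 for Ra 12 h (0.678%), 7 for Ra 48 h (28.5%), 6, 10, 12 and 15 for Nnm low 24 h (18.0%), low 48 h (13.0%), high 24 h (33.7%) and high 48 h (27.4%), 5 for Ra against Fk at 48 h (27.0%), 10 for vehicle time in the CsA set (24.1%), 2 for that in the Nnm set (0.704%) and 3 for the Ra effect at 48 h against 12 h (11.8%). The Fk and Ra arrays share only a number, so their block values say nothing of pairing. Centred arrays gave 6 for Ra 48 h (17.0%), 2 for Nnm low 24 h (10.9%) and 1 for Ra against Fk at 48 h (13.8%), and quantile normalization gave 4 (16.8%), 3 (11.9%) and 1 (13.6%). No filter gave 1 for Ra 48 h (9.19%), 0 for Nnm low 24 h (3.39%), 1 for Nnm low 48 h (2.62%) and 3 for CsA vehicle time (6.29%). The arrays of the set alone gave 1 for Nnm low 48 h (7.04%), 5 for Nnm high 24 h (25.6%) and 3 for CsA vehicle time (12.1%), and every probe set on its own gave 2 for Ra against Fk at 48 h (15.8% of probe sets). Without replicate 2 of every Nnm group, chosen after seeing the data, the counts were 5 for low 24 h (13.2%), 7 for high 24 h (31.2%) and 1 for the high-dose effect over time (0.881%), COL26A1, whose value rests on control replicate 3 at 24 h.

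With each array left out in turn the counts were 0 to 2 for CsA 48 h, 0 to 4 for Ra 48 h, 0 to 3, 0 to 6, 0 to 7 and 2 to 11 for Nnm low 24 h, low 48 h, high 24 h and high 48 h, 0 to 4 for Ra against Fk at 48 h, 2 to 5 and 2 to 6 for vehicle time in the CsA set and in the Fk and Ra set, 0 to 3 for the Ra effect and 0 to 1 for the high-dose Nnm effect over time, and 0 for the others. No share of all genes is set beside these ranges, so they show only how far the counts depend on single arrays. Levels near the bottom of the scale limit what COL4A3, COL4A4, ITGA1, ITGA8 and LAMA2 can show.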
